A study of Mus musculus with 8 samples.

Results

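Hypoxia targets and glycolysis enzymes were examined as 1 set of 34 genes in the inflamed mouse ear, taken from the 19126 genes of the deposited table by gene symbol. All 34 were found, and all 34 had reads in every library and entered the test. By role, 16 belong to the response to low oxygen (the regulators Hif1a, Egln1 and Egln3 and 13 target genes) and 18 to sugar breakdown (glucose and lactate transport, the glycolytic enzymes and the enzymes that decide the fate of pyruvate).

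The data are RNA sequencing of whole left ears, 1 per animal, from 8 C57BL/6 mice of 6 to 8 weeks with allergic contact dermatitis, with 4 mice given vehicle and 4 given MMP-9-IN-1, a small-molecule inhibitor of the gelatinase MMP-9. All 8 animals were sensitised on day 1 with 25 µL of 0.3% DNFB (dinitrofluorobenzene, a skin sensitiser), and on day 6 their left ear was painted with 10 µL of 0.25% DNFB. The inhibitor went into the peritoneum at 10 mg/kg; vehicle mice received the solvent of 10% DMSO, 40% PEG300 and 50% PBS by the same route, and ears were collected after 4 days of continued treatment. Both groups therefore received the same DNFB, the drug reaches the whole animal and not the ear alone, and no ear free of DNFB enters the comparison. The labels give no genotype, sex or batch and number the mice 1 to 4 in each group, so p-values measure the spread between these animals.

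As background, cells sense oxygen through the factor HIF-1, whose alpha subunit is encoded by Hif1a. In the presence of oxygen the prolyl hydroxylases of the Egln genes mark that subunit for destruction, and when oxygen is short it persists and switches on genes for blood vessel growth, glucose uptake and glycolysis. HIF-1 is thus controlled mostly at the protein, and the level of its messenger does not measure its activity. Inflamed skin is a tissue of low oxygen, and neutrophils, activated macrophages and dividing keratinocytes all draw on glycolysis, so the same messengers are made by several cell types of the ear. In whole-ear RNA, fewer cells of a type and less RNA per cell cannot be told apart.

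HIF-1 binds the short DNA word ACGTG or GCGTG, and the stretches that hold it before the start sites of 10 members are printed to show the sequence that the hypoxia targets and the glycolytic genes share. They come from RefSeq promoters of build GRCm38.p6, each is 60 bases in the direction of the gene, and capitals mark the word on either strand (as CACGT or CACGC where it lies on the opposite one).
Adm (chr7:110627558-110627617, plus strand): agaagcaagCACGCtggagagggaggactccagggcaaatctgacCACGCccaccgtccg
Ankrd37 (chr8:45999972-46000031, minus strand): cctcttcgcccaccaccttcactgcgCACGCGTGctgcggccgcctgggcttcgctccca
Bnip3 (chr7:138909582-138909641, minus strand): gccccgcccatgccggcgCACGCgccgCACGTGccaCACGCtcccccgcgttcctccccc
Egln1 (chr8:124949290-124949349, minus strand): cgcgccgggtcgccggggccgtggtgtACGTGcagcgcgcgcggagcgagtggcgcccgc
Slc2a1 (chr4:119108669-119108728, plus strand): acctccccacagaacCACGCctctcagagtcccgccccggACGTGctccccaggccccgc
Slc16a3 (chr11:120949007-120949066, plus strand): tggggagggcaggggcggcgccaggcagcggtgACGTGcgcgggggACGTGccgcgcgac
Hk1 (chr10:62340422-62340481, minus strand): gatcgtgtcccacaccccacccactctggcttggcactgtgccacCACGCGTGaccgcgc
Pgk1 (chrX:106186932-106186991, plus strand): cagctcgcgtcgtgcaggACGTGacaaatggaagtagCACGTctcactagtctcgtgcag
Ldha (chr7:46845736-46845795, plus strand): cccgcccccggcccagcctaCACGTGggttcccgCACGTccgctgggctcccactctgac
Gapdh (chr6:125165790-125165849, minus strand): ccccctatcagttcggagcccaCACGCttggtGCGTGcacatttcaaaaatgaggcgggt
Of the 34 members, 31 were matched to the table of promoters, and 29 of these held the word in the 250 bases before a start site, including 13 of 13 hypoxia members and 16 of 18 glycolysis members. The word was found for 57.8% of the 11967 tested genes with an entry, for 41.5% of all 27025 genes in the table and in 38.6% of its 32851 promoters, counting any listed start of a gene. At least 2 matches were held by 22 members, against 29.0% of tested genes. CACGTG counts as 2 overlapping matches because it reads ACGTG on both strands, as does CACGCGTG with GCGTG, and CACGTG is also a word of the E-box factors. A match is a description of letters and not of binding.

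The 8 libraries held 13863145 to 18512200 reads. Levels are given as CPM, a read count scaled to a fixed library size after TMM (a correction for library composition), when ears are compared, and as TPM, the authors' values scaled to gene length, when genes are compared. The ears fell into unlike states within each group, and these were not spread evenly over the 2 groups. In the test described below, inhibitor estimates were lower for 10 of 10 neutrophil, 8 of 8 activated-keratinocyte and 5 of 5 red blood cell markers. They were higher for 12 of 12 skeletal muscle and 6 of 6 adipocyte markers, and the remaining lists were mixed. No marker passed, and state and treatment cannot be told apart here. Summed over 10 neutrophil markers, the vehicle ears (mice 1 to 4) read 10733, 13772, 1046 and 959 CPM and the inhibitor ears read 942, 7324, 805 and 1085 CPM. Vehicle mice 1 and 2 and inhibitor mouse 2 were thus high and the other 5 ears low. Red blood cell markers (6 genes, Slc4a1 at 0 in some ear) ranged from 82.2 to 10373 with vehicle and 72.5 to 2266 with the inhibitor. The 8 activated-keratinocyte markers ranged from 3181 to 20589.5 with vehicle and 3106 to 9631 with the inhibitor, the 8 epidermal keratinocyte markers from 12554 to 25358 with vehicle and 15037 to 22903 with the inhibitor, and the 12 skeletal muscle markers from 374 to 1720.4 with vehicle and 399 to 3564 with the inhibitor. The activated-keratinocyte and neutrophil lists share S100a8 and S100a9. Without these 2 genes the other 6 activated-keratinocyte markers read 7173, 8977, 3905 and 2381 CPM in the vehicle ears and 3782, 3438, 3828 and 2246 CPM in the inhibitor ears. No marker of keratinocytes, fibroblasts or endothelium was at 0 in any ear. The same held for the muscle, neutrophil, macrophage, adipocyte and T cell markers, so the absence of zeros does not identify the tissue.

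**Figure D1:**
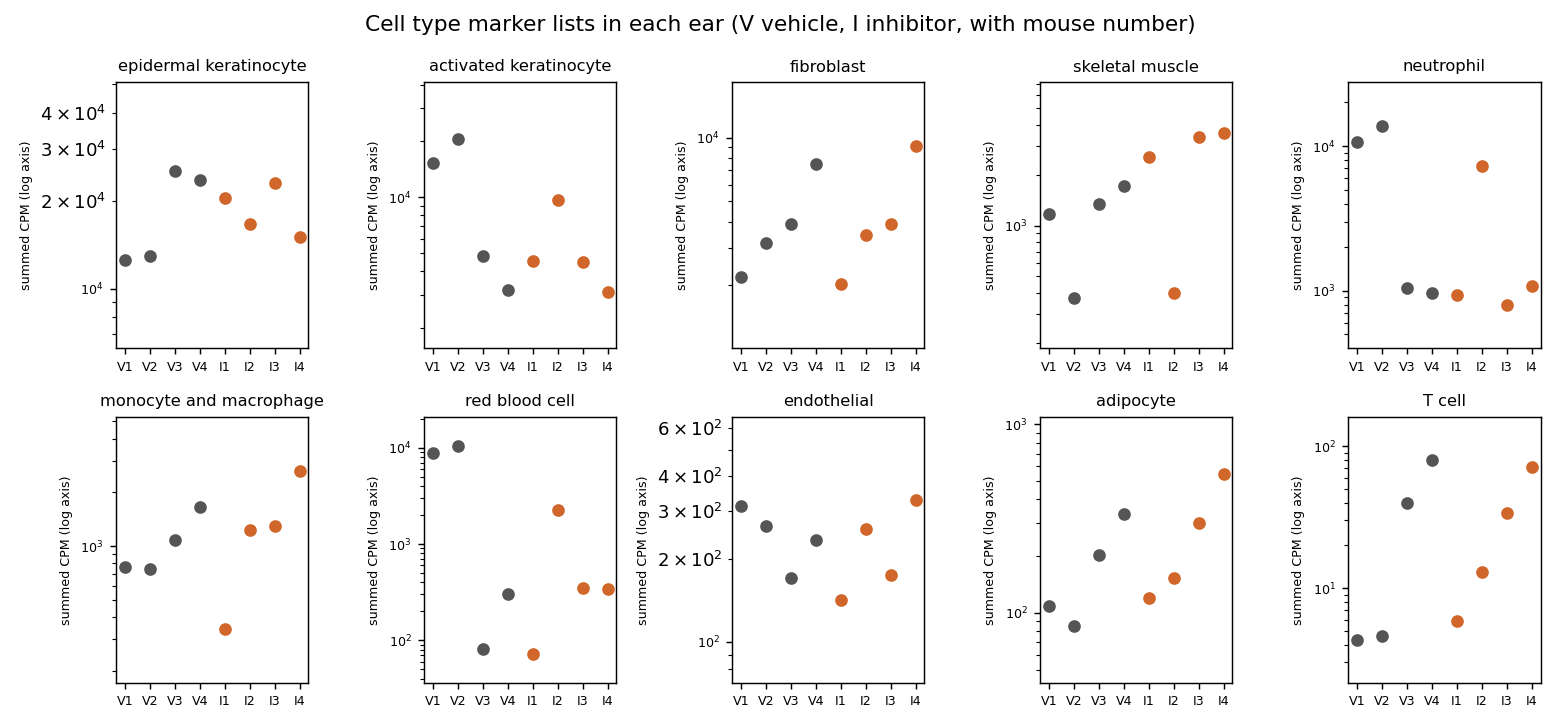
Summed CPM (log axis) of 10 marker lists in each of the 8 ears, grey for vehicle (V1 to V4) and orange for inhibitor (I1 to I4). Neutrophil and red blood cell markers are high in V1, V2 and I2, and muscle markers are lowest in V2 and I2.

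Between inhibitor and vehicle ears no member passed the test. Of the 34 members, 0 passed a Benjamini-Hochberg adjusted p of 0.05 in edgeR's quasi-likelihood test over 15096 genes, of which 0% passed. The adjusted p of every member was 0.999. Over all genes 157 had an unadjusted p under 0.05 in edgeR, and DESeq2 and limma-voom with quality weights also passed 0 genes, with 293 and 296 at that unadjusted p. At an unadjusted p under 0.05 there was 1 member, Ddit4, on the lower side, where 0.662% of all genes were found, and 0 members on the higher side, where 0.378% were. The members at that p, in either direction, numbered 4 with DESeq2, against 1.94% of all genes. They numbered 8 without vehicle mouse 4 (2.56% of all genes), 5 without vehicle mouse 3 (2.83%) and 5 without inhibitor mouse 2 (2.53%). They numbered 0 without vehicle mouse 1 (0.695%), vehicle mouse 2 (0.275%), inhibitor mouse 1 (0.894%) or inhibitor mouse 3 (0.648%). Among mouse numbers 1 and 2 only they numbered 10, against 16.9% of all genes. There was 1 such member without inhibitor mouse 4 (0.845% of all genes), with scaling by total counts (0.709%) and with limma-trend on TPM (0.641%). These shares lie within those of the fits with 0 members, 0.275% to 0.894%. With the mouse number as a block, 0 members passed and 8 had an unadjusted p under 0.05, all lower, where 1.78% of all genes were lower and 3.02% higher at that p. These 8 were Slc2a1, Egln3, Ddit4, Hk1, Ankrd37, Eno1, Vegfa and Pgam1. The 4 ears of 1 group lay wholly apart from those of the other in 0 of the 34 members, against 0.457% of all genes for inhibitor lower and 0.735% for inhibitor higher.

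The direction of the estimates was nearly uniform. The inhibitor estimate was below 0 in 33 of 34 members, against 45.5% of all genes tested, with Pdk1 as the exception. The median log2 fold change was -0.34 over the 16 hypoxia members and -0.42 over the 18 glycolysis members, against 0.026 over all genes. Members share their ears and are not independent of each other, so this count is no test. It rests in large part on vehicle mouse 2. Without that library 25 of 34 members were lower, against 51.2% of all genes, and the medians were -0.079 and -0.092. The hypoxia median was -0.53 without either vehicle mouse 4 or inhibitor mouse 2. With limma-voom quality weights 25 members were lower, against 46.5% of all genes. There 10 members including Hif1a, Adm, Slc16a3 and Pkm changed sign. Scaling by total counts gave 30 lower members against 29.5% of all genes, and limma-trend on TPM gave 27 against 24.2%. Vehicle mouse 2, whose removal moves these values the most, had the highest neutrophil and red blood cell sums, and the part of these cells in the result was not tested. Without vehicle mouse 1, the other vehicle ear with high sums, 32 members were lower, against 50.8% of all genes, with medians of -0.33 and -0.39.

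**Figure D2:**
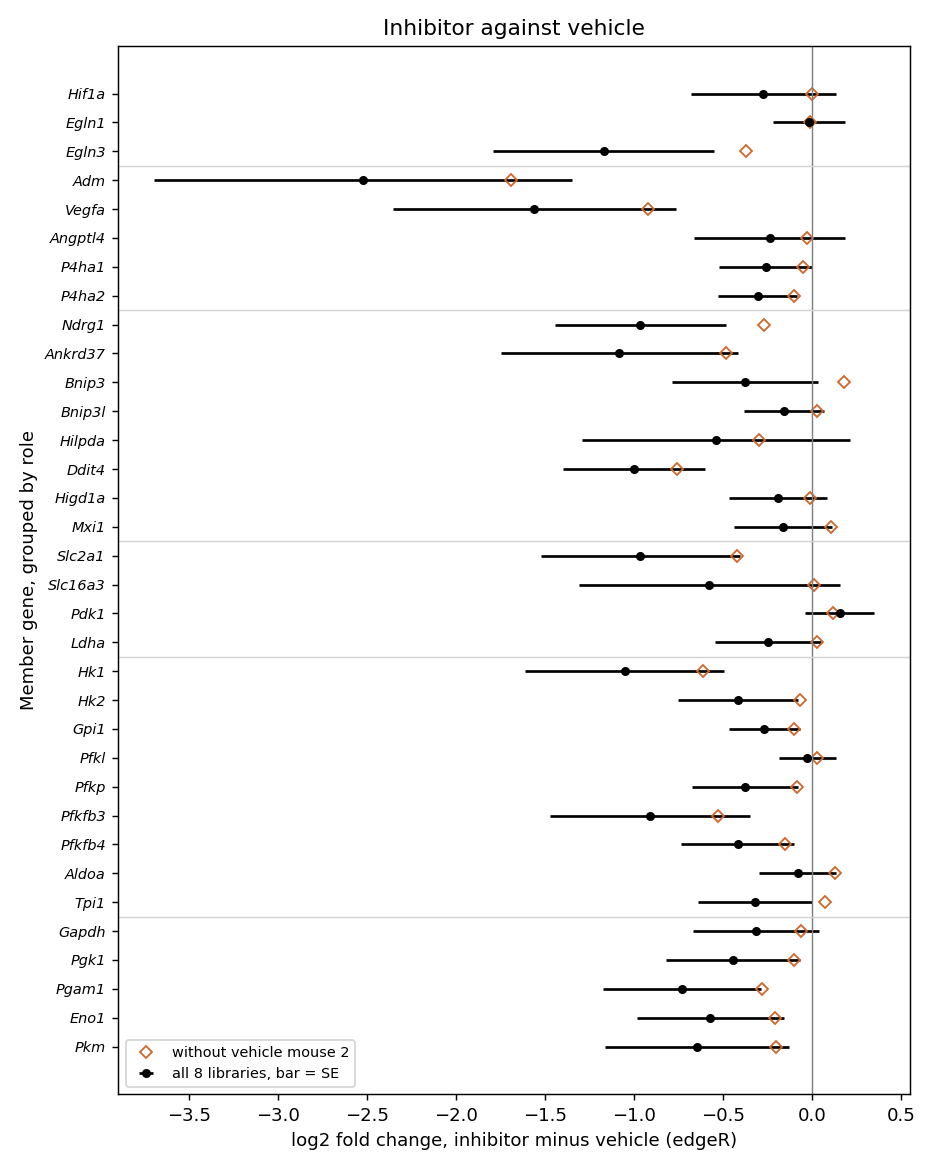
Log2 fold change, inhibitor minus vehicle, of the 34 members by role, with all 8 libraries (black points, bars are SE) and without vehicle mouse 2 (orange diamonds). In the full comparison 33 points lie left of 0, and without vehicle mouse 2 the count is 25.

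A single ear held the highest level of most members. Vehicle mouse 2 was the highest of the 8 ears in 29 of 34 members, or 85.3%, where it was the highest in 20.4% of all genes tested. Vehicle mice 1 and 2 held both top places in 19 members, or 55.9%, against 20.1% of all genes. Inhibitor mouse 3 was the lowest ear in 14 members, or 41.2%, against 6.23% of all genes. Ears of the same number were also compared, as a description only, since the labels do not say that a number links animals across groups. The inhibitor ear was lower in 29 members for mouse 1, 32 for mouse 2, 30 for mouse 3 and 11 for mouse 4. For these numbers it was lower in 46.6%, 49.3%, 48.0% and 44.0% of all genes. The counts are of CPM after TMM and were not made in TPM. By TPM, some members lower in CPM were higher in inhibitor mouse 1 than in vehicle mouse 1, among them Tpi1 at 377 against 317. Others stayed lower, among them Slc2a1 at 219 against 350. The median log2 ratio of inhibitor over vehicle was -0.45, -0.76, -0.21 and 0.077 for these numbers, and that of all genes stayed between 0.0095 and 0.035. The inhibitor ear was lower in all 4 numbers for 8 members, or 23.5%, against 6.19% of all genes. These 8 were Ddit4, Slc2a1, Ldha, Hk1, Gpi1, Pfkp, Gapdh and Eno1. The list depends on the scaling. By TPM, inhibitor mouse 1 was above vehicle mouse 1 for Ldha (1519 against 1302), Gpi1 (342 against 297) and Pfkp (82.3 against 80.6). Ddit4, Slc2a1, Hk1, Gapdh and Eno1 were lower in all 4 numbers by TPM as well.

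**Figure D3:**
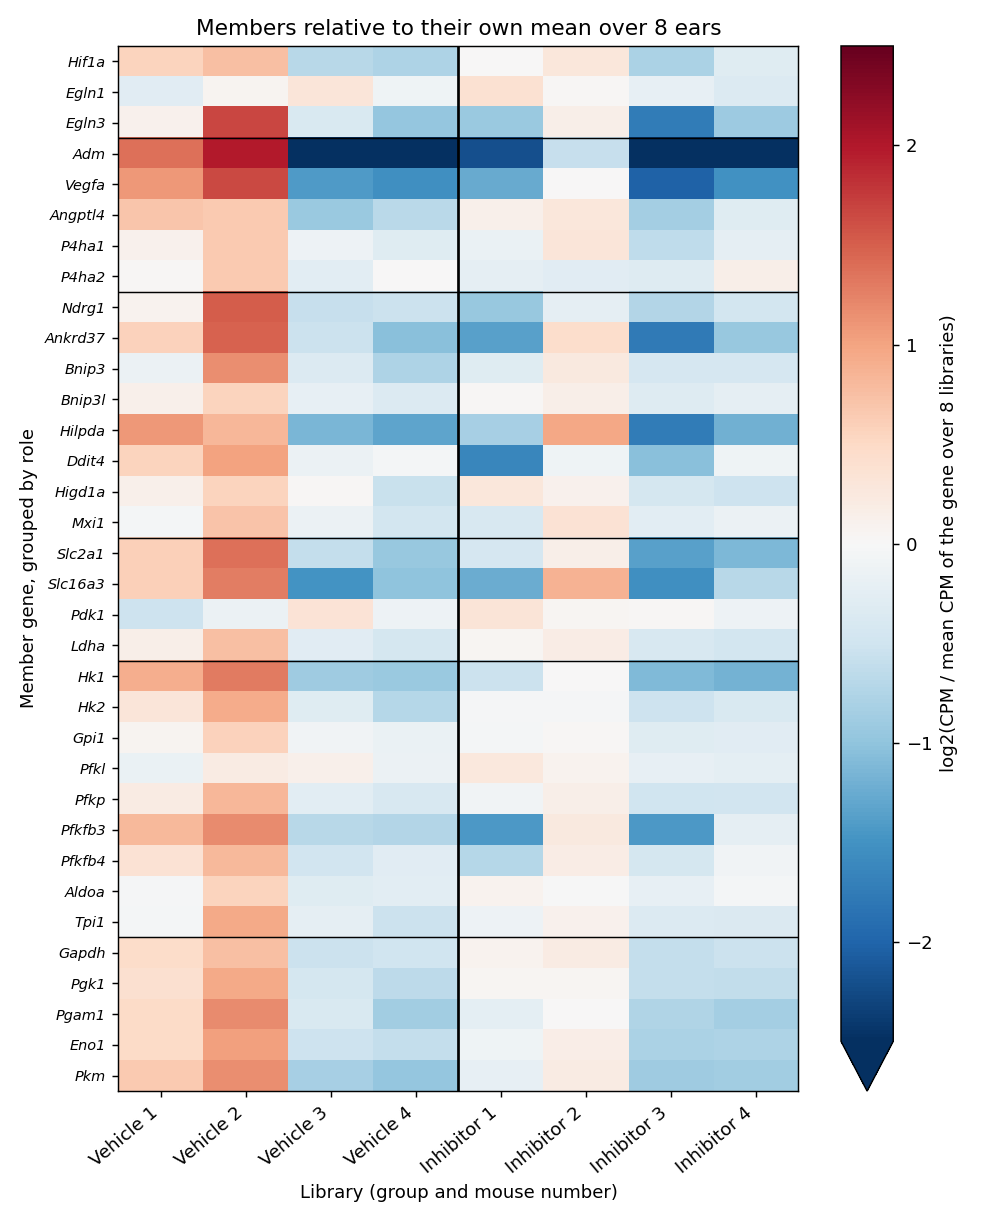
Each member's log2 ratio of CPM to its own mean over the 8 libraries, with vehicle mice left and inhibitor mice right of the black line and members grouped by role. The colour scale ends at -2.5 and 2.5, and 4 Adm values lie below it. Vehicle mouse 2 is the highest ear in 29 of the 34 rows.

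Among the regulators, Hif1a and Egln1 had estimates smaller than their SE, and Egln3 ranged more widely. Hif1a read 434, 498, 182 and 172 CPM in the vehicle ears (mice 1 to 4) and 297, 358, 169.8 and 237 CPM in the inhibitor ears. Mice 1 and 2 were the higher ears of both groups, and the groups overlapped. Its means were 266 ± 80.7 CPM under the inhibitor and 321 ± 169 CPM under vehicle (SD, n = 4), with a log2 fold change of -0.27 (SE 0.41). Egln1, the main oxygen sensor among the prolyl hydroxylases, read 112, 144, 168 and 126 CPM under vehicle and 179, 139, 119 and 107 CPM under the inhibitor. Its highest ear was inhibitor mouse 1, its full range over the ears was 1.67-fold, and the log2 fold change was -0.019 (SE 0.200). Egln3, a prolyl hydroxylase that is itself induced by HIF, read 90.9, 270.1, 65.5 and 43.6 CPM under vehicle and 44.5, 94.1, 25.2 and 45.1 CPM under the inhibitor. Vehicle mouse 2 stood well above all other ears, inhibitor mouse 2 was next, and inhibitor mice 1, 3 and 4 lay below vehicle mouse 3. The log2 fold change of Egln3 was -1.17 (SE 0.62) (edgeR unadjusted p = 0.095), -0.37 without vehicle mouse 2 and -1.64 without inhibitor mouse 2.

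The secreted and vascular targets included the member of widest range. Adm encodes adrenomedullin, a peptide that widens blood vessels. It read 54.4, 83.3, 2.36 and 2.85 CPM in the vehicle ears (mice 1 to 4) and 4.59, 13.99, 2.66 and 3.69 CPM in the inhibitor ears. Vehicle mice 1 and 2 lay far above all other ears, inhibitor mouse 2 was next, and the remaining 5 ears were all under 5 CPM. Its range over the ears was 35.3-fold, the widest of the members, and its log2 fold change of -2.52 (SE 1.17) had an edgeR unadjusted p of 0.0628. It was -1.69 without vehicle mouse 2, -3.32 without inhibitor mouse 2 and 0.083 with limma-voom quality weights. Vegfa, the principal growth factor of blood vessels, read 266, 395, 47.3 and 43.5 CPM under vehicle and 52.4, 127, 31.1 and 44.3 CPM under the inhibitor. The same 3 ears were high, and vehicle mice 3 and 4 lay within the range of the inhibitor group. Its log2 fold change was -1.56 (SE 0.79), -0.92 without vehicle mouse 2 and -2.17 without inhibitor mouse 2. Restricted to mouse numbers 3 and 4, the values were 0.26 for Adm and -0.295 for Vegfa, against -2.88 and -1.87 among numbers 1 and 2.

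Angptl4, an inhibitor of lipoprotein lipase, and the collagen prolyl hydroxylase subunits P4ha1 and P4ha2 differed less. Angptl4 ranged from 40.4 to 125 CPM over the 8 ears, with a log2 fold change of -0.24 (SE 0.42). P4ha1 ranged from 34.6 to 83.5 CPM, with -0.26 (SE 0.26). P4ha2 read 21.9, 33.95, 17.9 and 21.5 CPM under vehicle and 18.4, 17.7, 17.1 and 23.7 CPM under the inhibitor, a log2 fold change of -0.31 (SE 0.22). Only vehicle mouse 2 stood outside the range of the inhibitor ears for P4ha2 on the high side.

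**Figure D4:**
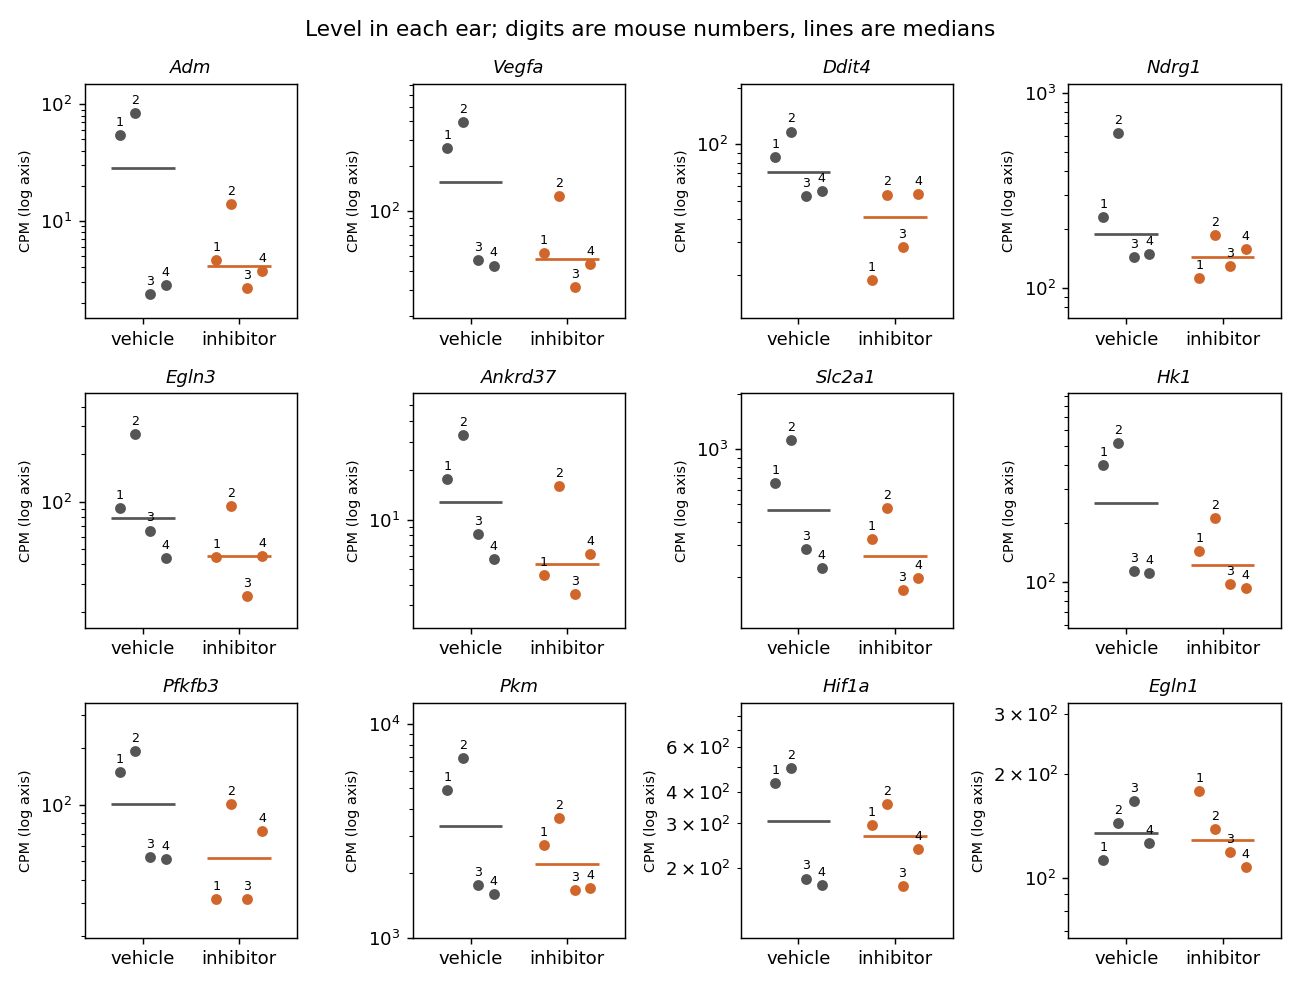
CPM (log axis) of 12 members in each ear, vehicle in grey and inhibitor in orange, with digits for the mouse number and lines for group medians. Vehicle mice 1 and 2 lie above vehicle mice 3 and 4 in every panel except Egln1, and inhibitor mouse 2 is the highest inhibitor ear of Adm, Vegfa, Ndrg1, Egln3, Ankrd37, Slc2a1, Hk1, Pfkfb3, Pkm and Hif1a.

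Of the targets that act on growth, mitochondria and lipid, Ddit4 came closest to separating the groups. Ddit4, also named REDD1, restrains the growth kinase mTORC1 and is induced by glucocorticoids as well as by hypoxia. It read 85.9, 117, 53.00 and 56.5 CPM in the vehicle ears (mice 1 to 4) and 18.98, 54.03, 28.4 and 54.5 CPM in the inhibitor ears. The highest inhibitor ears overlapped the lowest vehicle ears by a narrow margin, and the inhibitor ear was the lower one for each mouse number. Its means were 38.97 ± 18.1 CPM under the inhibitor and 78.1 ± 29.9 CPM under vehicle (SD, n = 4), and its log2 fold change was -1.002 (SE 0.398) with an edgeR unadjusted p of 0.0352. Leaving out 1 library at a time gave -1.23 to -0.76. Ndrg1, a stress gene long used as a hypoxia marker, read 231, 622, 145 and 149.8 CPM under vehicle and 112, 187, 130.4 and 158 CPM under the inhibitor. Here vehicle mouse 2 alone was far above the rest, and the log2 fold change of -0.97 (SE 0.48) became -0.27 without it. Ankrd37, an ankyrin repeat protein induced by HIF, read 17.6, 32.9, 8.099 and 5.703 CPM under vehicle and 4.59, 16.1, 3.48 and 6.15 CPM under the inhibitor, with a log2 fold change of -1.08 (SE 0.67). Its 3 highest ears were again vehicle mice 1 and 2 and inhibitor mouse 2, and the estimate was -0.48 without vehicle mouse 2 and -1.79 without inhibitor mouse 2.

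The mitophagy receptors and the other members of that group had estimates nearer to 0. Bnip3 and Bnip3l, which mark mitochondria for removal, ranged from 62.4 to 237 and from 187 to 348 CPM, with log2 fold changes of -0.38 (SE 0.41) and -0.16 (SE 0.22). Higd1a, a protein of the mitochondrial inner membrane, had -0.19 (SE 0.27), and Mxi1, an antagonist of MYC, had -0.16 (SE 0.27). Hilpda, which slows fat breakdown in lipid droplets, is given with all its ears. It read 143, 119.8, 30.8 and 27.2 CPM under vehicle and 37.96, 133, 20.1 and 29.4 CPM under the inhibitor, so that inhibitor mouse 2 stood with vehicle mice 1 and 2 and the log2 fold change was -0.54 (SE 0.75). That estimate was -1.49 without inhibitor mouse 2 and -0.12 without vehicle mouse 1.

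Sugar enters and lactate leaves through Slc2a1 (the glucose transporter GLUT1) and Slc16a3 (the lactate exporter MCT4). Slc2a1 read 651, 1120.2, 284 and 224 CPM in the vehicle ears (mice 1 to 4) and 323, 477, 169 and 198 CPM in the inhibitor ears. The vehicle ear was the higher one for each mouse number, yet vehicle mice 3 and 4 lay inside the range of the inhibitor ears. Its means were 292 ± 141 CPM under the inhibitor and 569.7 ± 413 CPM under vehicle (SD, n = 4), with a log2 fold change of -0.97 (SE 0.56) (edgeR unadjusted p = 0.121). Slc16a3 read 183, 296, 43.4 and 60.7 CPM under vehicle and 51.4, 222, 42.1 and 75.6 CPM under the inhibitor, with a log2 fold change of -0.58 (SE 0.73). Its second highest ear was inhibitor mouse 2, 4.32-fold above inhibitor mouse 1. Without vehicle mouse 2 the estimates were -0.42 for Slc2a1 and 0.011 for Slc16a3, and without inhibitor mouse 2 they were -1.33 and -1.400.

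At the entry to glycolysis, Hk1, the hexokinase of most tissues, spanned 5.55-fold over the ears and Hk2, the inducible form, 3.11-fold. Hk1 read 396, 516, 113 and 111 CPM under vehicle and 145, 212, 98.1 and 92.98 CPM under the inhibitor. Vehicle mice 1 and 2 were the highest 2 ears, and the other vehicle ears lay within the inhibitor range. Its log2 fold change was -1.05 (SE 0.56) (edgeR unadjusted p = 0.0939), against -0.42 (SE 0.34) for Hk2, and without vehicle mouse 2 it was -0.62 for Hk1. Without inhibitor mouse 2 it was -1.37. Pfkfb3, which makes the activator of phosphofructokinase, read 149, 192, 52.9 and 51.4 CPM under vehicle and 31.6, 101, 31.4 and 72.8 CPM under the inhibitor. Inhibitor mice 1 and 3 were the lowest ears and inhibitor mice 2 and 4 overlapped the vehicle group, with a log2 fold change of -0.91 (SE 0.56), which was -0.53 without vehicle mouse 2 and -1.33 without inhibitor mouse 2. Its relative Pfkfb4 had -0.42 (SE 0.32). The phosphofructokinases Pfkl and Pfkp had -0.027 (SE 0.16) and -0.38 (SE 0.298). In CPM, Pfkl had the narrowest range of the members, 1.41-fold over the ears. Gpi1, Aldoa and Tpi1, the enzymes between and after these steps, had -0.27 (SE 0.200), -0.083 (SE 0.22) and -0.32 (SE 0.32).

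The later steps of glycolysis, from Gapdh to Pkm, hold several of the most abundant messengers of the set. Gapdh read 7216, 8845, 3611 and 3725 CPM in the vehicle ears (mice 1 to 4) and 5619.6, 6049, 3492 and 3628 CPM in the inhibitor ears. Mice 1 and 2 were the higher ears of both groups, so the groups overlapped, and the log2 fold change was -0.32 (SE 0.35). Gapdh, often taken as a constant reference gene, spanned 2.53-fold over these ears in CPM. Its span was narrower in TPM, from 4654 to 8171, so the size of the range depends on the scaling. Pgk1, the first ATP-making step, read 731, 1065, 409 and 353 CPM under vehicle and 575, 574, 366 and 364 CPM under the inhibitor, a log2 fold change of -0.44 (SE 0.37). Pgam1, phosphoglycerate mutase, read 695, 1133, 381 and 270.4 CPM under vehicle and 421, 503, 294 and 277 CPM under the inhibitor, with -0.73 (SE 0.44). Eno1, alpha enolase, read 1575, 2296, 793 and 753 CPM under vehicle and 1049, 1269.9, 659 and 667 CPM under the inhibitor, with -0.57 (SE 0.41). In each of these genes the inhibitor ears of mice 1 and 2 stood between vehicle mice 1 and 2 above and vehicle mice 3 and 4 below. Without vehicle mouse 2 the estimates were -0.064 for Gapdh, -0.101 for Pgk1, -0.28 for Pgam1 and -0.21 for Eno1. Pkm, pyruvate kinase, ranged from 1599 to 6946 CPM with a log2 fold change of -0.65 (SE 0.52), which was -0.204 without vehicle mouse 2. Gapdh, Pgk1, Eno1, Pgam1, Ldha, Tpi1, Aldoa and Pkm have processed pseudogenes or near-identical copies in the mouse genome, and reads of 50 bases can match both, so their absolute levels are uncertain.

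At the fork of pyruvate the estimates of 2 enzymes had opposite signs, each smaller than its SE. Ldha, which turns pyruvate to lactate, read 1526, 2311, 1125 and 1009 CPM under vehicle and 1426, 1556, 1039 and 1003 CPM under the inhibitor. Vehicle mouse 2 was the one ear above the others, and the log2 fold change of -0.25 (SE 0.295) became 0.025 without it. Pdk1, the kinase that keeps pyruvate out of the mitochondria, was the member with an estimate above 0 at 0.15 (SE 0.19). It ranged from 43.9 to 79.9 CPM, with vehicle mouse 1 lowest and vehicle mouse 3 highest.

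Members thus varied by ear in unlike measure. In CPM, the highest ear exceeded the lowest by less than 2-fold in 7 members, by 2 to 5-fold in 16 and by more than 5-fold in 11. The same counts over all genes were not made, so it is not known whether these are unusual. Inhibitor mice 1 and 2 were compared as a description, a pair chosen after their values were seen. Their 10 neutrophil markers summed to 942 and 7324 CPM. Their red blood cell markers summed to 72.5 and 2266 CPM, and their monocyte and macrophage markers to 341 and 1224 CPM. Their skeletal muscle markers went the other way, at 2571 and 399 CPM. Inhibitor mouse 2 was more than 2-fold above inhibitor mouse 1 in 8 members, namely Slc16a3, Ankrd37, Hilpda, Pfkfb3, Adm, Ddit4, Vegfa and Egln3, with ratios from 2.12 to 4.32. In 23 members the ratio was under 1.5, among them Gapdh at 1.08, Ldha at 1.09, Pgk1 at 0.998, Eno1 at 1.21 and Pkm at 1.33. The shares of all genes at these ratios were not counted, so neither count is particular to the members. The part of neutrophils, macrophages, red blood cells, muscle or keratinocyte state in these differences was not tested.

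By TPM, the levels of the members spanned from 14.8 for P4ha2 to 6231 for Gapdh as means over the 8 ears. The first 5 were Gapdh at 6231 ± 1479.7 TPM, Pkm at 2089 ± 921, Aldoa at 1599 ± 177, Ldha at 1317 ± 234 and Eno1 at 968 ± 324 (SD, n = 8). Gapdh was above Pkm in 8 of 8 ears, while Pkm was above Aldoa in 4 of 8 and does not differ from it beyond their spread. Aldoa was above Ldha, and Ldha above Eno1, in 8 of 8 ears. Pgk1, Pgam1, Tpi1 and Gpi1 followed between 320.4 and 464 TPM, each within the SD over ears of its neighbour. Within ears, Pgk1 was above Pgam1 in 7 of 8, Pgam1 above Tpi1 in 5 of 8 and Tpi1 above Gpi1 in 7 of 8. Slc2a1 came next at 248 ± 137. The other 24 members averaged 113 TPM or less. Together the 18 glycolysis members took 1.71%, 2.05%, 1.18% and 1.14% of all TPM in vehicle mice 1 to 4 and 1.63%, 1.57%, 1.09% and 1.14% in inhibitor mice 1 to 4. The 16 hypoxia members took between 0.0662% and 0.163%.

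Several of these steps have sister isoforms, and their shares of the family's TPM shifted between ears. The muscle forms Pfkm, Pgam2 and Eno3 stood highest in inhibitor mice 3 and 4, the ears with the highest muscle marker sums. Pgam2 made up 2.205, 0.629, 12.4 and 25.6% of phosphoglycerate mutase TPM in the vehicle ears and 6.704, 1.42, 27.1 and 35.8% in the inhibitor ears. Its lowest shares were those of vehicle mouse 2 and inhibitor mouse 2, where the 12 muscle markers summed to 374 and 399 CPM against 1167 to 3564 CPM in the other ears. Pfkm made up 6.89, 3.62, 19.3 and 25.5% and 11.1, 6.86, 34.4 and 36.7% of phosphofructokinase TPM in the same order. Eno3 spanned 0.702% to 18.3% of enolase TPM. Among glucose transporters, Slc2a3, the high-affinity form that neutrophils carry, made up 24.4, 28.5, 1.45 and 3.81% in vehicle mice 1 to 4 and 0.941, 24.5, 2.73 and 3.93% in inhibitor mice 1 to 4, high in the same 3 ears as the neutrophil markers. Slc16a3 made up 58.2% ± 14.9 with vehicle and 51.4% ± 17.8 with the inhibitor of the TPM of Slc16a1 and Slc16a3 together (SD, n = 4). Aldoa and Ldha kept at least 99.46% and 87.0% of their families in each ear. The part of muscle and neutrophil content in these shares was not tested.

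**Figure D5:**
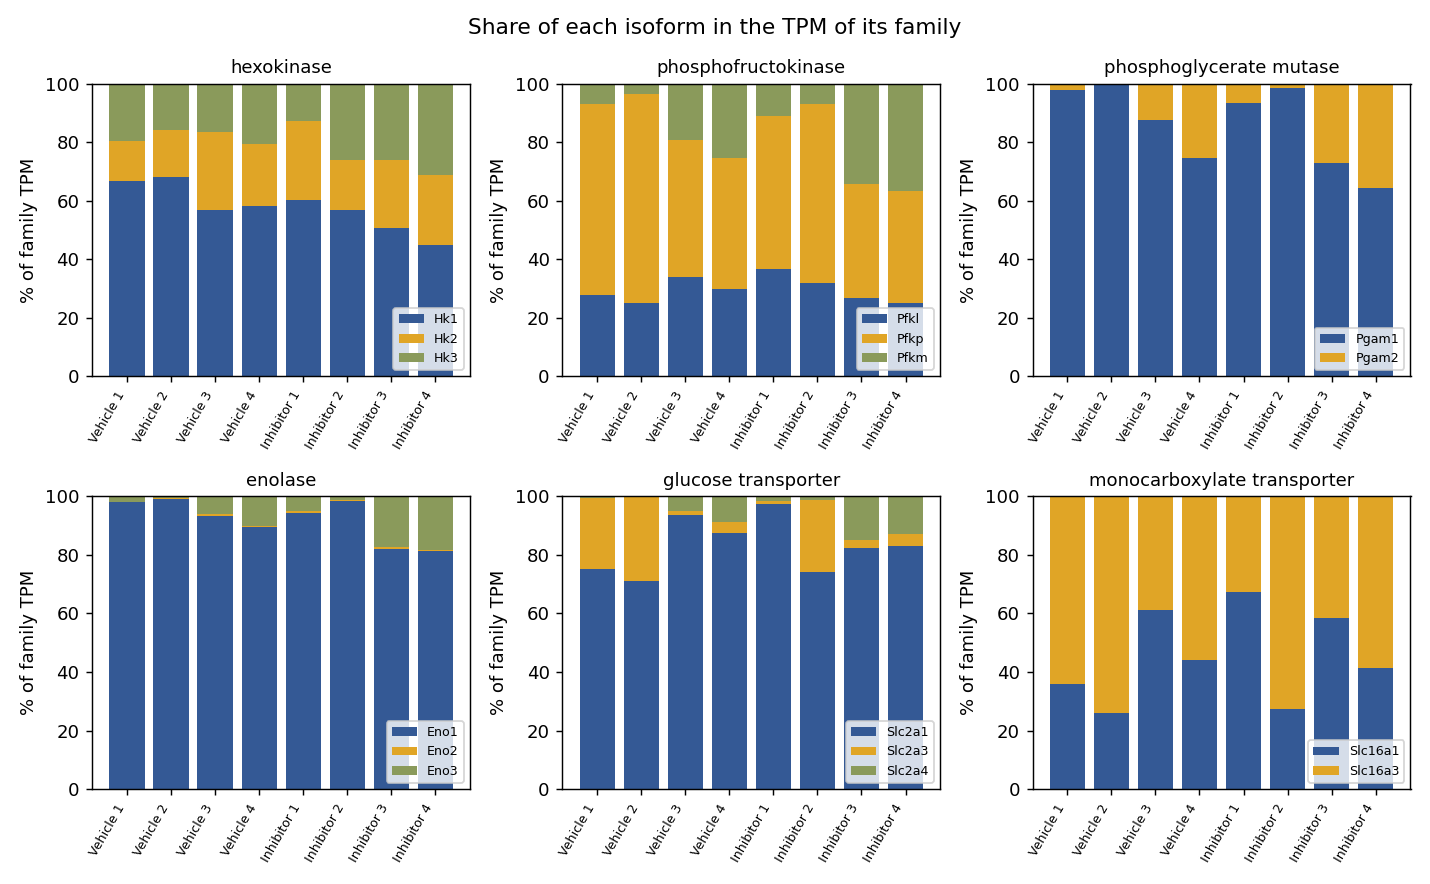
Share of each isoform in the summed TPM of its family (%) in each ear, as stacked bars for 6 families. Slc2a3 is large in vehicle mice 1 and 2 and inhibitor mouse 2, and Pgam2, Eno3 and Pfkm are larger in mice 3 and 4 of both groups than in mouse 2.

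Other genes of the pathways were taken from 2 lists outside the set. Of 29 further HIF pathway genes and targets tested, 0 passed in either direction, 20 had a lower and 9 a higher estimate, and the median log2 fold change was -0.16. Those with the smallest p were Edn1, the vasoconstrictor endothelin-1, at -1.38 (SE 0.77), Kdm3a, a histone demethylase induced by hypoxia, at -0.54 (SE 0.31), and Stc2, a secreted glycoprotein, at -0.48 (SE 0.303). Other HIF subunits and the von Hippel-Lindau protein, which recognises hydroxylated HIF, had estimates of 0.43 (SE 0.44) for Epas1, -0.66 (SE 0.95) for Hif3a, -0.18 (SE 0.16) for Arnt and -0.11 (SE 0.14) for Vhl. Hif3a was near the floor, at 0.0689 to 1.63 CPM over the ears. Of 29 further glycolysis and glucose genes tested, 0 passed, 13 had a lower and 16 a higher estimate, and the median was 0.12. Slc2a3 stands in both lists. Mpc1, a subunit of the mitochondrial pyruvate carrier, had 0.27 (SE 0.14), Pfkfb1 had 0.34 (SE 0.18), and Pgd, of the pentose phosphate pathway, had -0.64 (SE 0.36). Pfkfb1 was the 1 gene of this list whose 4 inhibitor ears lay wholly above the vehicle ears, at 4.59, 5.04, 4.702 and 5.07 against 3.63, 3.86, 3.79 and 4.02 CPM. Of all genes tested 0.735% lay apart in that direction. All of these had an edgeR adjusted p of 0.999.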

How the data were processed

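Per the labels' protocols, mRNA of 8 ears was captured with oligo(dT) beads and read on the DNBSeq platform from 1 end, 50 bases long. The submitters' processing notes name HISAT and GRCm39. How reads were counted, and on which annotation, is not given in the sources used here. Estimated counts, FPKM and TPM per gene and library were made and deposited by the authors. The expected counts were not whole in 33.7% to 35.3% of values within a tolerance of 1e-09 and were rounded. The deposited TPM, scaled to gene length and a fixed total, gave levels and 1 alternative. The deposited FPKM and 6 columns of group means were not used.

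Genes passing filterByExpr (15096) were scaled with TMM and tested with edgeR 4.0.16 in R 4.3.3 (glmQLFit and glmQLFTest), inhibitor minus vehicle, no covariate, Benjamini-Hochberg threshold 0.05. The members and lists were chosen with earlier results of these data known. Named were all 34 members, with every library's value for the 12 smallest p and 8 further members, a total of 17, and for some others chosen after their values were seen; of each pathway list 3 genes were named, and any other was chosen after its values were seen. Of 31 further glycolysis symbols 29 were in the table. Libraries of a group differed beyond sampling noise (chi-square per degree of freedom 23.7 to 304). Same-numbered mice deviated together (correlations 0.397, 0.710, 0.673 and 0.682), which is where the pairing comes from; the labels do not state it. Ears of different numbers correlated as strongly in places (vehicle 4 with inhibitor 3, 0.685; vehicle 1 with inhibitor 2, 0.554), so the table separates mice 1 and 2 from 3 and 4 rather than each number, and blocked values carry that doubt. On simulated counts for these 15096 genes, the share of altered genes that edgeR called was 0% for 1.5-fold, 22.0% for 2-fold, 82.0% for 4-fold and 98.0% for 8-fold changes. The simulation gave each gene the spread typical of its level and left out the unlike states of these ears. The median SE was 0.39 over the members and 0.26 over all genes, so these shares may be too high for the members. Alternatives used limma 3.58.1 and DESeq2 1.42.0.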

Additional observations from a re-analysis of the deposited data

Results flagged for a closer look

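Within each group of 4 ears, the gap between an extreme ear and its nearest neighbour was compared with the range of the group for the 34 members and the 10 marker sums. Of 88 groups 5 had an ear that stood apart, all of them inhibitor mouse 2 on the high side, and chance marks about 1 group in 20. Adm had 13.99 CPM there against at most 4.59 CPM in the other inhibitor ears. Bnip3 had 125 CPM against at most 85.4 CPM. Hilpda had 133 CPM against at most 37.96 CPM. The neutrophil markers summed to 7324 CPM against at most 1085 CPM, and the red blood cell markers to 2266 CPM against at most 347 CPM.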

How the results depend on the processing

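Over 18 alternatives, 0 of 34 members and 0 of all genes passed, and the smallest adjusted p of a member was 0.220, among mouse numbers 1 and 2 only. Of the 34 estimates, 17 kept their sign throughout. With the mouse number as a block 33 members were lower, against 45.6% of all genes, with medians of -0.26 (hypoxia) and -0.33 (glycolysis). Apart from the 8 unadjusted p-values above, the block changed no call. Total counts and TPM moved the median of all genes to 0.12 and 0.15; the members' medians stayed lower, at -0.19 and -0.26, and of -0.11 and -0.19. Signs changed with total counts for Egln1 (0.071), Pfkl (0.076) and Aldoa (0.057), and with limma-trend on log2(TPM + 1) for Egln1 (0.11), Pfkl (0.11), Aldoa (0.12), Angptl4 (0.019), Bnip3l (0.011) and Mxi1 (0.031). With limma-voom quality weights, which give discordant libraries less weight, they changed for Hif1a (0.11), Adm (0.083), Angptl4 (0.17), Bnip3 (0.104), Mxi1 (0.066), Slc16a3 (0.073), Pdk1 (-0.057), Aldoa (0.094), Tpi1 (0.011) and Pkm (0.030), and 7 of the further glycolysis genes were lower. Among mouse numbers 1 and 2 they changed for Egln1 (0.302) and Pfkl (0.14), and the further HIF genes had a median of -0.36. Among numbers 3 and 4 they changed for Hif1a (0.18), Adm (0.26), Angptl4 (0.22), P4ha2 (0.023), Bnip3 (0.094), Mxi1 (0.069), Slc16a3 (0.15), Pdk1 (-0.202), Hk2 (0.017), Pfkfb4 (0.102) and Aldoa (0.13). There 24 of 34 members were lower, against 48.6% of all genes. With 1 library left out, signs changed for Egln1 (-0.18 to 0.094), Angptl4 (-0.46 to 0.0022), Bnip3 (-0.59 to 0.18), Bnip3l (-0.27 to 0.028), Mxi1 (-0.37 to 0.11), Slc16a3 (-1.400 to 0.011), Ldha (-0.39 to 0.025), Pfkl (-0.13 to 0.043), Aldoa (-0.18 to 0.13) and Tpi1 (-0.49 to 0.071). The cause of these changes was not tested. With 4 ears a group, changes of 2-fold or less are mostly out of reach here, and larger ones can be missed where ears differ widely.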

Other observations

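The kinases that govern entry to glycolysis and to the mitochondrion differed in their mix of isoforms between ears. Pfkfb3 made up 62.7, 62.5, 43.9 and 41.5% of PFKFB TPM in vehicle mice 1 to 4 and 32.7, 54.5, 30.9 and 48.5% in inhibitor mice 1 to 4, with inhibitor mice 1 and 3 lowest. Hk3, a hexokinase of myeloid cells, made up 19.5, 15.8, 16.4 and 20.6% of hexokinase TPM in vehicle mice 1 to 4 and 12.9, 26.1, 25.99 and 31.1% in inhibitor mice 1 to 4. Pdk3 held the largest share among the pyruvate dehydrogenase kinases in 7 of 8 ears.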
